A study of Mus musculus with 12 samples.

Results

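The cytochrome P450 genes described here are mouse Cyp genes outside the drug-inducible Cyp2b, Cyp2c and Cyp3a families. Several genes of sterol and bile acid synthesis were left out by name, as were 2 further genes. Others that act on sterols or bile acids, such as Cyp39a1, Cyp46a1 and Cyp2a12, stayed in. The genes were taken as every probe set with a single platform gene symbol of Cyp followed by a digit. Symbols starting with Cyp2b, Cyp2c or Cyp3a were left out, as were Cyp51, Cyp7a1, Cyp7b1, Cyp8b1, Cyp27a1, Cyp2e1 and Cyp2f2. This gave 45 probe sets for 36 genes, of 22626 probe sets and 12393 singly named genes on the array. Where a gene had several probe sets, as 8 of the 36 did, the one with the highest average stood for it. Probe sets that carry several symbols name no single gene, so Cyp2a5 and Cyp4a10 were not analysed here, and neither was Cyp26b1.

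P450 enzymes are haem proteins of the endoplasmic reticulum or the mitochondria that insert an oxygen atom into lipids, hormones and foreign compounds, using electrons passed on by P450 reductase or by ferredoxin. Hepatocytes are their main site in the body. Families are known for their substrates: Cyp1 enzymes for aromatic hydrocarbons, Cyp2d for many drugs, Cyp2j for arachidonic acid epoxides, Cyp4a and Cyp4f for the far end of fatty acids and eicosanoids, and Cyp26 for retinoic acid. Phenobarbital induces liver P450 genes through the nuclear receptor CAR, and the Cyp2b genes are its classical targets.

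Total RNA from 4 groups of 3 arrays each was measured on an Affymetrix 3' expression array, and the study asked how phenobarbital acts on different liver cell populations. The groups were mesenchymal cells from phenobarbital mice, mesenchymal cells from water mice, hepatocytes from phenobarbital mice and hepatocytes from water mice. The mice were 12-week-old males of the C57BL/6N strain, with no engineered allele named. Phenobarbital was given at 50 mg/kg per day in drinking water for 14 days, and control mice drank tap water. The labels do not say whether the 3 arrays of a group came from separate animals, so the spread behind each p-value is that of these arrays and may be technical.

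Values are RMA expression levels on a log2 scale, from 2.79 to 15.16 over the whole table, and 1 unit is a doubling. The fraction labelled mesenchymal was rich in macrophage and endothelial RNA: 12 of 12 measured Kupffer cell markers and 15 of 15 sinusoidal endothelial markers were higher in it than in hepatocytes, against 7 of 8 tested stellate cell and fibroblast markers. The mean level of 14 hepatocyte markers lay between 10.02 and 11.31 on mesenchymal arrays of phenobarbital mice and between 9.37 and 10.51 on those of water mice, against 14.04 to 14.13 on hepatocyte arrays. Cyp2b10, the classical phenobarbital target and not among the 36 genes, stood at 13.06, 14.15 and 12.87 in phenobarbital hepatocytes against 7.80, 8.01 and 7.72 in water hepatocytes. The water arrays numbered 1 of both populations stood apart in their clock genes. For example Dbp, a clock output gene, was at 6.21 on water hepatocyte array 1 against 11.87 and 11.60 on the other two. In these bulk samples, fewer cells of a type and less RNA per cell cannot be told apart.

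A gene was taken as detected on an array where it exceeded that array's 40th percentile, a level of 6.54 to 6.68. Of the 36 P450 genes, 22 were above it on all 3 phenobarbital hepatocyte arrays and 19 on all 3 water hepatocyte arrays, against 12 on all 3 arrays of either mesenchymal group. Over all genes the share was 62% in phenobarbital hepatocytes, 62.2% in water hepatocytes and 62.1% in either mesenchymal group. Counting genes above it on at least 3 of the 6 arrays of a population, 15 were detected in both populations, 8 in hepatocytes and not in mesenchymal cells, and 2 in mesenchymal cells and not in hepatocytes. These last were Cyp4f16 and Cyp4f18, and Cyp2d12 exceeded it on 2 hepatocyte arrays alone. The 10 genes below it on all 12 arrays include Cyp1a1 and Cyp1b1, which metabolise aromatic hydrocarbons, Cyp24a1 and Cyp27b1, which break down and activate vitamin D, Cyp11a1 and Cyp11b2 of adrenal steroid synthesis, and Cyp2s1. Their levels are rough, and the main fits did not test them. Cyp1a1 ranged from 5.88 to 6.13 in phenobarbital hepatocytes against 5.99 to 6.17 in water hepatocytes.

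**Figure D1:**
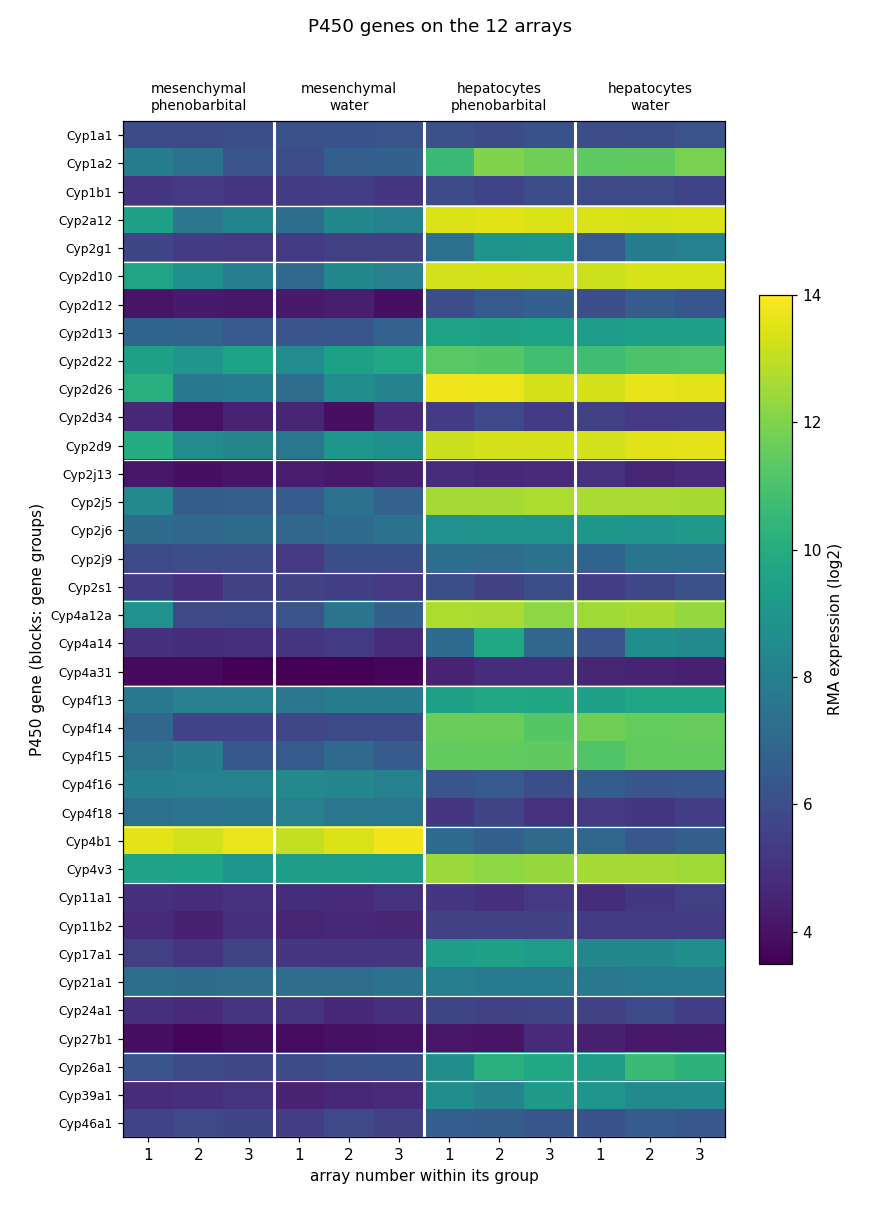
RMA expression (log2, colour) of the 36 P450 genes (rows, in blocks by gene group) on the 12 arrays (columns, by group). Most bright rows, such as Cyp2a12 and the Cyp2d genes, are bright on the 6 hepatocyte arrays, while Cyp4b1 is bright on the 6 mesenchymal arrays. Colours compare arrays within a row, since probe sets differ in their response.

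Between mesenchymal cells and hepatocytes, P450 genes differed in both directions. Cyp4b1, known from rabbits for activating toxic plant furans, had the widest fitted difference of the 25 genes tested, and it was higher in mesenchymal cells. In phenobarbital mice it stood at 13.59, 13.28 and 13.70 in mesenchymal cells against 7.18, 6.72 and 7.14 in hepatocytes. In water mice it stood at 13.05, 13.45 and 13.77 in mesenchymal cells against 6.98, 6.33 and 6.66 in hepatocytes. The log2 difference was 6.51 in phenobarbital mice and 6.76 in water mice (SE 0.21 each, limma adjusted p = 2.2e-10 and 1.5e-10). The mesenchymal levels lie near the top of the array's scale and the hepatocyte levels near the detection level, with 1 water array below it, so the difference is compressed at both ends and no fold is given. Cyp4b1 lies beside the Cyp4a cluster on chromosome 4, whose 2 tested genes were lower in mesenchymal cells. In RefSeq's GRCm38.p6 annotation a single protein-coding gene, Cyp4a32, separates it from Cyp4a31.

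Of the 36 genes, 25 passed the filter on low values and were tested between the populations, and all 25 of those passed the test in phenobarbital mice and in water mice. In each, 3 were higher in mesenchymal cells and 22 lower, and the ranges of the 3 arrays overlapped for none of the 25. Among all 9031 genes tested, 83.1% passed in phenobarbital mice (42.2% higher, 40.9% lower) and 82.7% in water mice (42% higher, 40.7% lower), and the groups did not overlap for 85.7% and 84.4%. Of the 25 genes, 9 exceeded the filter level on arrays of a single population in each comparison (2 on mesenchymal arrays and 7 on hepatocyte arrays in phenobarbital mice, 1 and 8 in water mice). A pass of that kind favours genes that differ, so the counts describe the tested genes and not the 36. The median log2 difference of the tested P450 genes was -3.07 in phenobarbital mice and -3.21 in water mice, beside 0.03 and 0.02 over all genes tested. The phenobarbital and the water comparison contrast different arrays. Both were fitted on all 12 arrays, with the same filter and a shared estimate of the spread, so they are not independent tests.

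The 2 other genes higher in mesenchymal cells were hydroxylases of the Cyp4f family. Cyp4f18 encodes the leukocyte enzyme known in mice for inactivating leukotriene B4. It stood at 7.34, 7.52 and 7.57 in mesenchymal cells against 5.18, 5.64 and 5.01 in hepatocytes of phenobarbital mice, and at 8.09, 7.62 and 7.63 in mesenchymal cells against 5.26, 5.21 and 5.43 in hepatocytes of water mice. The mesenchymal and hepatocyte ranges lay well apart, with a log2 difference of 2.20 in phenobarbital mice and 2.48 in water mice (SE 0.17 each). Cyp4f16 stood at 8.05, 8.11 and 8.10 in mesenchymal cells against 6.27, 6.46 and 6.03 in hepatocytes of phenobarbital mice, a log2 difference of 1.84 (SE 0.14). In water mice it stood at 8.45, 8.35 and 8.06 in mesenchymal cells against 6.61, 6.26 and 6.34 in hepatocytes, a difference of 1.88. The hepatocyte levels of both genes lay below or at the detection level, so those 2 differences are compressed. Against the detection level, which stands in for levels under it, Cyp4f18 was at least 1.86-fold higher in mesenchymal cells of phenobarbital mice and at least 2.32-fold in those of water mice, and Cyp4f16 at least 2.84-fold in those of phenobarbital mice. Such bounds, here and below, are taken from group means and carry no interval for the spread of the arrays. A second Cyp4f16 probe set, whose design can match related sequences, gave a smaller difference in the same direction, 0.70 in phenobarbital mice and 0.77 in water mice. The other 3 measured genes of the family, Cyp4f13, Cyp4f14 and Cyp4f15, were all lower in mesenchymal cells. All 4 of Cyp4f16, Cyp4f15, Cyp4f14 and Cyp4f13 lie in 1 cluster on chromosome 17, while Cyp4f18 is on chromosome 8.

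To show the start of genes that ran in opposite directions, 5 promoter windows follow, from RefSeq (GRCm38.p6), each 250 bases before to 50 bases after the annotated start and written 5' to 3' on the gene's strand. Cyp4b1 and Cyp4f16 were higher in mesenchymal cells. Cyp1a2, which metabolises caffeine and aromatic amines, and the neighbours Cyp2d9 and Cyp2d10, of the drug and steroid hydroxylase cluster on chromosome 15, were lower. Capitals mark matches, on either strand, to 6 short motifs: TATAAA (core of the promoter element of that name), AGGTCA (a nuclear receptor half-site), AGTTCA (another form of that half-site), CAAAGTCCA (an HNF4 type site), AGGAAG (an ETS type core) and GCGTG (the core of the dioxin response element). No matches overlap in these windows.
Cyp4b1 (chr4:115647672-115647971, minus strand): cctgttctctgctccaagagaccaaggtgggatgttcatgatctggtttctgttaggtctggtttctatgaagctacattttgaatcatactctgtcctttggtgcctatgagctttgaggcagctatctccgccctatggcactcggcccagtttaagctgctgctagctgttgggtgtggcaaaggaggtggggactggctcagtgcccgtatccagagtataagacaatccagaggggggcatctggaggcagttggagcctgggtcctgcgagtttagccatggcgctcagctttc
Cyp4f16 (chr17:32536307-32536606, plus strand): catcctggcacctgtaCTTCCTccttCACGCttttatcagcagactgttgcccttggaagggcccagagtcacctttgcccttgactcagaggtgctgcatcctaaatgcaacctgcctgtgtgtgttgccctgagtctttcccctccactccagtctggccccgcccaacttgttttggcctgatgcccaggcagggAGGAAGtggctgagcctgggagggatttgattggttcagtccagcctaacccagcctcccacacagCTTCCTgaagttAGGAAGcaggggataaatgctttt
Cyp1a2 (chr9:57683606-57683905, minus strand): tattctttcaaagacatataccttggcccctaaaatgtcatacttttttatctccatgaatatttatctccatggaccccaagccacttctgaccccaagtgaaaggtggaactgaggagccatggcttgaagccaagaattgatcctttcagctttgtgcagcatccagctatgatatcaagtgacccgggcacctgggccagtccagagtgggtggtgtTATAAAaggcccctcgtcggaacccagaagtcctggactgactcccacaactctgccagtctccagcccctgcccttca
Cyp2d9 (chr15:82452127-82452426, plus strand): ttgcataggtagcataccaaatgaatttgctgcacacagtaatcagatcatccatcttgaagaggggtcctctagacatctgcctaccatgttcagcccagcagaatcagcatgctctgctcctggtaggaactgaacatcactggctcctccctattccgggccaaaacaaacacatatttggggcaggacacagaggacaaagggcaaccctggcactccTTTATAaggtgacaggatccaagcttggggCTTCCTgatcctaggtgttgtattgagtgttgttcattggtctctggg
Cyp2d10 (chr15:82407145-82407444, minus strand): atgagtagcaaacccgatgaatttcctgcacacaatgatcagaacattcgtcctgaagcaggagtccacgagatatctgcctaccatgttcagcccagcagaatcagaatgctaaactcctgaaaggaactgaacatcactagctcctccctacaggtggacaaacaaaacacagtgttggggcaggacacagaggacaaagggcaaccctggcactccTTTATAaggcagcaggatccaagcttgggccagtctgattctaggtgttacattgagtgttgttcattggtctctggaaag

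Windows were at hand for 23 of the 36 genes, 28 windows in all. TATAAA or its reverse complement was in 8 of the 28 windows (28.6%), against 13.6% of all 32851 windows of this length. It lay 20 to 40 bases before the start in 6 windows, those of Cyp1a1, Cyp1a2, Cyp2a12, Cyp2d9, Cyp2d10 and Cyp2d26, against 2.5% of all windows, with those bounds chosen after the matches were seen. The windows printed above hold it at -29 in Cyp1a2, at -28 in Cyp2d9 and at -31 in Cyp2d10, in reverse in the 2 Cyp2d windows. AGGAAG was in 14 of the 28 windows (50%) and in 35.4% of all, and the Cyp4f16 window holds it 4 times. GCGTG was in 9 windows (32.1%) and in 32.4% of all, with 1 match in Cyp4f16. AGGTCA was in 2 windows (16.3% of all), AGTTCA in 4 (14% of all) and CAAAGTCCA in none (0.475% of all). The Cyp4b1 window holds none of the 6, though it holds tataag, which differs from TATAAA in its last letter. The reverse matches of the Cyp2d9 and Cyp2d10 windows also run on into tataag. Several of the genes have windows that share sequence, since they are neighbouring copies, and a match is a match of letters only.

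The 22 genes lower in mesenchymal cells spanned nearly the whole range from a fraction of a log2 unit to almost 6. For 7 of them (Cyp17a1, Cyp26a1, Cyp39a1, Cyp2g1, Cyp2j9, Cyp4a14 and Cyp46a1) the mesenchymal level lay below the detection level on all 6 arrays, and for 6 more on some arrays. Their fitted differences are compressed at that end and are not ranked here. Cyp4f14, known for hydroxylating leukotrienes and vitamin E, stood at 6.96, 5.61 and 5.62 in mesenchymal cells against 11.61, 11.65 and 11.23 in hepatocytes of phenobarbital mice, and at 5.72, 5.87 and 5.86 in mesenchymal cells against 11.71, 11.52 and 11.56 in hepatocytes of water mice. The log2 difference was -5.43 in phenobarbital mice and -5.78 in water mice (SE 0.29). Its mesenchymal level was below the detection level on 5 of the 6 arrays, among them all 3 of water mice, where it was at least 30.6-fold lower than in hepatocytes. Cyp4f15 in the same cluster was lower by log2 differences of -4.16 in phenobarbital mice and -4.67 in water mice. Cyp4f13, with no protein-coding gene between it and Cyp4f14, was lower by only -1.65 in phenobarbital mice and -1.80 in water mice.

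In the Cyp4a group, the arachidonic acid hydroxylase Cyp4a12a differed by -5.70 in phenobarbital mice and -5.67 in water mice (SE 0.65). Its mesenchymal values were spread widely, at 8.80, 5.82 and 5.86 in phenobarbital mice and 6.21, 7.53 and 6.71 in water mice, against 12.21 to 12.70 on the 6 hepatocyte arrays. Cyp4a14 is the lauric acid hydroxylase known as a target of the fatty acid receptor PPARA. It differed by -3.07 in phenobarbital mice and -2.76 in water mice (SE 0.73), with mesenchymal levels of 4.83 to 5.28, all undetected. By group means it was at least 2.5-fold lower in mesenchymal cells of phenobarbital mice and at least 2.24-fold in those of water mice. Water hepatocyte array 1, at 6.25, was itself below the detection level, so the water bound does not hold on that array. Cyp4a31 was below the detection level on all 12 arrays.

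All 5 tested genes of the 7 measured in the Cyp2d family were lower in mesenchymal cells. Cyp2d10 stood at 9.62, 8.77 and 8.01 in mesenchymal cells against 13.30, 13.34 and 13.27 in hepatocytes of phenobarbital mice, and at 7.10, 8.40 and 8.09 in mesenchymal cells against 13.20, 13.34 and 13.36 in hepatocytes of water mice. The mesenchymal arrays of 1 group spread over 1 log2 unit or more while the hepatocyte arrays stayed within 0.2. The log2 difference was -4.50 in phenobarbital mice and -5.44 in water mice for Cyp2d10 (SE 0.37), -5.07 in phenobarbital mice and -5.49 in water mice for Cyp2d26 (SE 0.54), and -4.32 in phenobarbital mice and -4.99 in water mice for Cyp2d9 (SE 0.42). Cyp2d13 differed by -2.84 in phenobarbital mice and -2.93 in water mice, and its second probe set by -4.14 in phenobarbital mice and -5.30 in water mice. Cyp2d22, the mouse gene often set beside human CYP2D6, had the smallest difference of the family, -1.78 in phenobarbital mice and -1.72 in water mice (SE 0.28). Its mesenchymal levels were 9.47, 8.97 and 9.57 in phenobarbital mice and 8.55, 9.47 and 9.80 in water mice, all above the detection level, against 10.79 to 11.31 in hepatocytes.

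Among the other Cyp2 genes, the epoxygenase Cyp2j5 differed by -5.37 in phenobarbital mice and -5.75 in water mice (SE 0.41), against -1.74 in phenobarbital mice and -1.87 in water mice for Cyp2j6, in the same cluster on chromosome 4. Cyp2j9 of that cluster was undetected on all 6 mesenchymal arrays, so that only a bound can be given, at least 1.59-fold lower in mesenchymal cells of phenobarbital mice and at least 1.58-fold in those of water mice. Cyp2a12, a bile acid and steroid hydroxylase, stood at 9.53, 7.68 and 8.22 in mesenchymal cells against 13.45, 13.52 and 13.46 in hepatocytes of phenobarbital mice, and at 7.30, 8.39 and 8.10 in mesenchymal cells against 13.41, 13.38 and 13.41 in hepatocytes of water mice. Its difference was -5.00 in phenobarbital mice and -5.47 in water mice (SE 0.39). Cyp2g1, an enzyme best known from the olfactory epithelium, was undetected on all 6 mesenchymal arrays. By group means it was at least 3.44-fold lower in mesenchymal cells of phenobarbital mice and at least 1.78-fold in those of water mice. Water hepatocyte array 1, at 6.42, was itself below the detection level for it, so the water bound does not hold on that array.

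The remaining genes act on aromatic compounds, retinoids, sterols, steroids or fatty acids. Cyp1a2 stood at 7.92, 7.44 and 6.27 in mesenchymal cells against 10.64, 12.03 and 11.73 in hepatocytes of phenobarbital mice, and at 5.98, 6.67 and 6.72 in mesenchymal cells against 11.39, 11.45 and 11.87 in hepatocytes of water mice. The difference was -4.26 in phenobarbital mice and -5.11 in water mice (SE 0.43). Its chromosome 9 neighbour Cyp1a1 was not detected in either population. Cyp26a1, which breaks down retinoic acid, differed by -3.53 in phenobarbital mice and -4.05 in water mice (SE 0.36), and Cyp39a1, the hydroxylase of 24-hydroxycholesterol, by -3.76 in phenobarbital mice and -4.00 in water mice (SE 0.22). Both were below the detection level on all 6 mesenchymal arrays, as was Cyp17a1, the 17-hydroxylase and lyase of steroid hormone synthesis, at -3.99 in phenobarbital mice and -3.33 in water mice (SE 0.15). As bounds, Cyp26a1 was at least 7.19-fold lower in mesenchymal cells of phenobarbital mice and at least 10.9-fold in those of water mice. The bound was 4.11-fold in phenobarbital mice and 3.99-fold in water mice for Cyp39a1, and 6.68-fold in phenobarbital mice and 3.49-fold in water mice for Cyp17a1. Cyp4v3, the mouse relative of the human fatty acid hydroxylase gene CYP4V2, differed by -2.94 in phenobarbital mice and -3.21 in water mice (SE 0.13), and a second probe set by -3.14 in phenobarbital mice and -3.32 in water mice. Among genes detected on all 12 arrays, the smallest difference was that of Cyp21a1, the steroid 21-hydroxylase, at -0.63 in phenobarbital mice and -0.51 in water mice (SE 0.08). A second Cyp21a1 probe set was below the detection level on all 12 arrays, so detection of Cyp21a1 rests on a single probe set. Cyp46a1, the cholesterol 24-hydroxylase, was detected on 3 hepatocyte arrays and no mesenchymal array, and its mean level lay under the detection level in both populations, so no size is given.

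**Figure D2:**
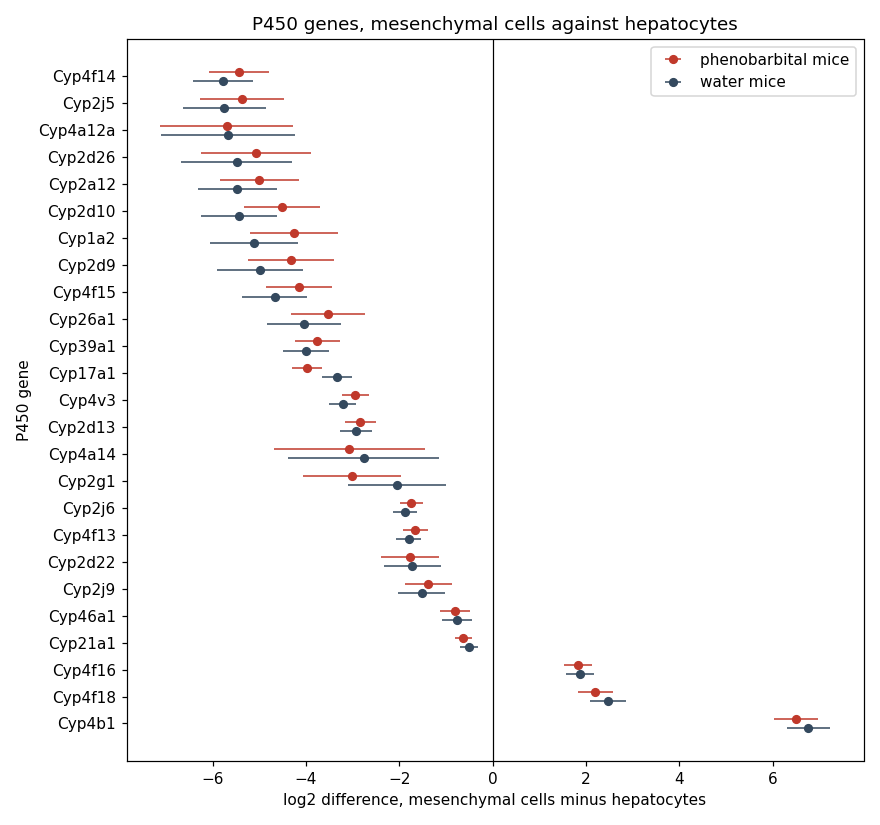
Log2 difference of mesenchymal cells minus hepatocytes for the 25 tested P450 genes, in phenobarbital mice (red) and water mice (dark), with 95% confidence intervals from limma. The 3 genes at the foot, Cyp4f16, Cyp4f18 and Cyp4b1, are higher in mesenchymal cells, and the other 22 are lower. Differences of genes undetected in 1 population, such as Cyp46a1 and Cyp2j9, are compressed.

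Hepatocyte marker levels in the mesenchymal fraction varied between arrays, as did several of these values. On the linear scale, 10 hepatocyte markers with a difference below -3 in both treatments stood at medians of 9.25, 4.84 and 4.04% of their hepatocyte mean on the 3 mesenchymal arrays of phenobarbital mice, and at 2.15, 5.42 and 4.67% on those of water mice. The 12 P450 genes past the same bound stood at medians of 7.06, 4.05 and 2.59% in phenobarbital mice and of 1.72, 3.37 and 3.06% in water mice. The bound alone gives both sets low shares. The array with the highest marker share, phenobarbital array 1, also held the highest value of 9 of the 12 P450 genes, and the array with the lowest share, water array 1, the lowest value of 7. Levels under the detection level are compressed, so shares there can be overstated. Of the 12 genes, 4 (Cyp2a12, Cyp2d9, Cyp2d10 and Cyp2d26) were above it on all 6 mesenchymal arrays, and the other 8 were below it on at least 2, with Cyp4f14 below it on 5 and Cyp17a1, Cyp26a1 and Cyp39a1 on all 6. The part of hepatocyte RNA in the mesenchymal levels of these 12 genes was not tested.

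Other P450 genes kept larger shares, which the bound of -3 alone would give them. Of the 14 hepatocyte markers, 4 were likewise not in the marker set, from which albumin (Alb) was left out before the bound was applied. Cyp2d22 stood at 31.6, 22.4 and 34.0% of its hepatocyte mean on the mesenchymal arrays of phenobarbital mice and at 18.3, 34.7 and 43.7% on those of water mice. Cyp4f13 stood at 27.4, 34.3 and 33.9% in phenobarbital mice and at 24.9, 31.2 and 30.2% in water mice. Cyp2j6 stood at 31.3, 26.7 and 31.9% in phenobarbital mice and at 23.5, 27.3 and 31.5% in water mice. These 3 genes were above the detection level on all 12 arrays. Cyp4v3 stood at 14.6, 15.0 and 10.02% in phenobarbital mice and at 10.7, 11.2 and 10.5% in water mice.

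**Figure D3:**
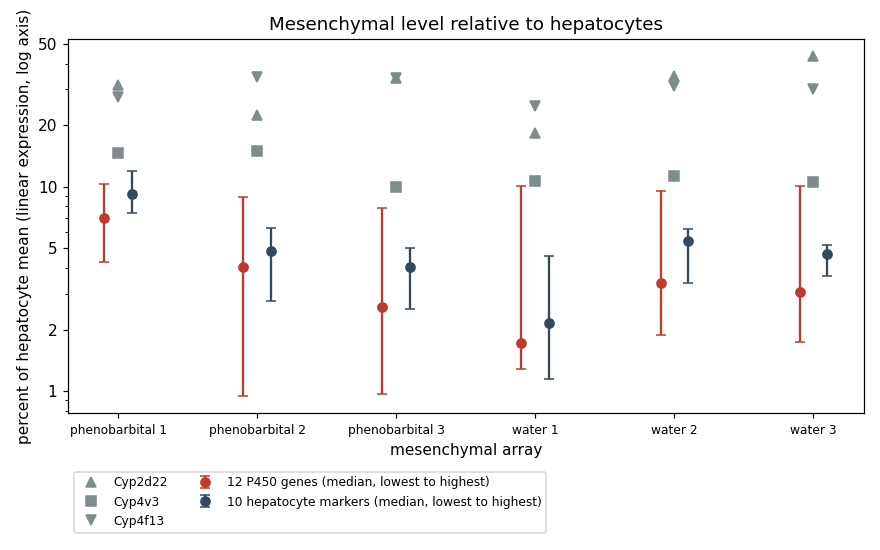
Level on each mesenchymal array as a percent of the hepatocyte mean of the same treatment (log axis): median and full range of 12 P450 genes (red) and of 10 hepatocyte markers (dark), with Cyp2d22, Cyp4v3 and Cyp4f13 as grey symbols. The red and dark medians are highest on phenobarbital array 1 and lowest on water array 1, and Cyp2d22 and Cyp4f13, outside the bound that chose both sets, lie higher on all 6 arrays.

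In hepatocytes, none of these P450 genes passed the test of phenobarbital against water. Of the 36 genes, 23 were tested and 0 passed in limma, with a smallest adjusted p of 0.114, beside 0.0493% of all 8117 genes tested. At an unadjusted p under 0.05 there were 2 (Cyp17a1 and Cyp4v3), beside 8.38% of all genes. The ranges of the phenobarbital and water arrays did not overlap for 5 genes, beside 15.1% of all genes. Among them Cyp17a1, Cyp2d13 and Cyp2a12 lay higher in phenobarbital hepatocytes (6.92% of all genes did) and Cyp4v3 and Cyp2j6 lower (8.14%). By a second Cyp2d13 probe set the groups overlapped, at 10.20, 10.23 and 9.90 in phenobarbital hepatocytes against 9.59, 9.99 and 10.10 in water hepatocytes. The 23 log2 differences ran from -0.60 to 0.95 with a median of 0.05, beside 0.00 over all genes, and 15 were positive and 8 negative.

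Cyp17a1 had the smallest p. It stood at 9.37, 9.53 and 9.31 in phenobarbital hepatocytes against 8.34, 8.34 and 8.71 in water hepatocytes, so the lowest phenobarbital array lay above the highest water array. The log2 difference was 0.94 (SE 0.12, 95% interval 0.65 to 1.22), or 1.91-fold, the 6th smallest p of 8117, and it missed the threshold at a limma adjusted p of 0.114. Leaving out each array in turn gave differences of 0.87 to 1.06, none of which passed. Cyp4v3 stood at 12.42, 12.20 and 12.36 in phenobarbital hepatocytes against 12.60, 12.57 and 12.50 in water hepatocytes. The log2 difference was -0.23 (SE 0.08, limma adjusted p = 0.507), and -0.23 by its second probe set. Cyp2j6 had a difference of -0.19 (SE 0.09), Cyp2d13 of 0.17 (SE 0.08) and Cyp2a12 of 0.08 (SE 0.05).

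Members with closely spaced arrays had narrow intervals. Cyp2d10 had a log2 difference of 0.00 with a 95% interval of -0.15 to 0.15, Cyp2j5 of -0.03 (-0.18 to 0.12) and Cyp2d9 of -0.19 (-0.39 to 0.02). Cyp4a12a, with more widely spread arrays, had 0.04 (-0.29 to 0.38). Cyp2a12, Cyp2d9, Cyp2d10 and Cyp2d26, at 13.15 or above on all 6 hepatocyte arrays, lie near the top of the array's scale, where differences are compressed.

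Other members varied widely between arrays of 1 group, and the fit without pairing gave them wide intervals. Cyp2g1 stood at 7.33, 8.95 and 9.05 in phenobarbital hepatocytes against 6.42, 7.95 and 8.10 in water hepatocytes, with array 1 lowest in both groups. Its difference of 0.95 (SE 0.57, 95% interval -0.37 to 2.27) ran from 0.42, without water array 1, to 1.51 when each array was left out in turn. By array number, both groups rank in the same order. Over all settings run, the smallest limma adjusted p of Cyp2g1 was 0.077, so it passed in none. Cyp4a14 stood at 7.15, 9.81 and 6.99 in phenobarbital hepatocytes against 6.25, 8.74 and 8.48 in water hepatocytes, with 1 high array in the phenobarbital group and 1 low array in the water group. Its difference of 0.16 (SE 0.88, interval -1.89 to 2.20) ran from -0.76, without phenobarbital array 2, to 0.66, without phenobarbital array 3, and was -0.63 without water array 1. Water array 1 lay below the detection level for Cyp2g1 and Cyp4a14. Cyp26a1 stood at 8.69, 10.06 and 9.77 in phenobarbital hepatocytes against 9.38, 10.65 and 10.30 in water hepatocytes, with array 1 again lowest in each. Its difference was -0.60 (SE 0.41), and ran from -0.97, without water array 1, to -0.19, without phenobarbital array 1. Cyp1a2 had a difference of -0.11 (SE 0.33, interval -0.88 to 0.66), its phenobarbital array 1 being the lowest of the 6, and turned to 0.31 without that array. Cyp4b1 had 0.36 (SE 0.20), at hepatocyte levels near the detection level, and Cyp39a1 0.05 (SE 0.25).

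**Figure D4:**
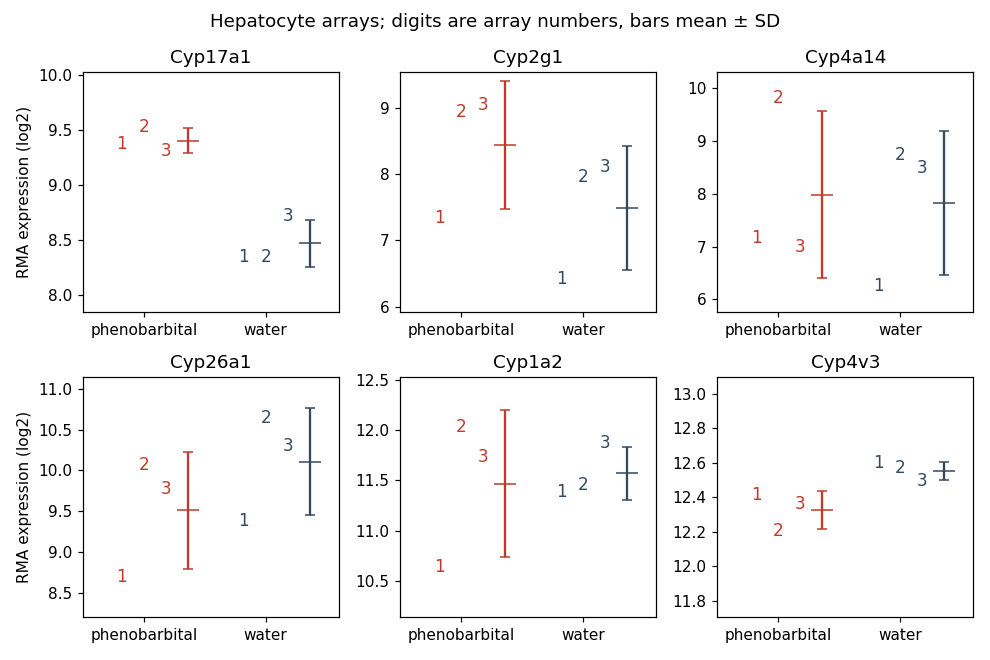
RMA expression (log2) of 6 P450 genes on the hepatocyte arrays of phenobarbital mice (red) and water mice (dark). Digits mark the single arrays by number and bars the mean ± SD (n = 3). The groups are apart for Cyp17a1 and Cyp4v3 and overlap for the other 4 genes, where array 1 is often the lowest of its group.

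Water hepatocyte array 1, whose clock genes stood apart, held the lowest of the 6 values for 10 of the 23 tested members. Without it, 10 differences were positive and 13 negative, with a median of -0.02, and again 0 passed in limma. The part of that array's clock state in the members' differences was not tested.

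Genes around the P450 enzymes gave the same count in hepatocytes. Of 16 measured P450 partners and regulators, a list that holds cytochrome b5, ferredoxin, haem synthesis and the receptors AHR, PPARA, CAR and PXR, 15 were tested and 0 passed in limma, with a median difference of 0.01. At an unadjusted p under 0.05 there was 1 gene (Nfe2l2), beside 8.38% of all genes. Alas1, the rate-limiting enzyme of haem synthesis, had -0.57 (SE 0.26) and Ppara 0.53 (SE 0.27). Of 17 measured targets of AHR and PPARA outside the family, 13 were tested and 0 passed in limma. At an unadjusted p under 0.05 there were 3 of them (Vnn1, Acot3 and Acot4), beside 8.38% of all genes. The median difference of the 13 targets was 0.25, and 12 of the 13 were positive, beside 49% of all genes. Vnn1, the pantetheinase gene induced by PPARA, stood at 9.41, 10.87 and 9.36 in phenobarbital hepatocytes against 8.73, 8.98 and 8.80 in water hepatocytes, a difference of 1.05 (SE 0.37, limma adjusted p = 0.543). Acot3 had 0.91 and Acot4 0.70, both genes of acyl-CoA thioesterases. Without water array 1, 10 of the 13 were positive and the median was 0.17.

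Between the populations, 11 of the 15 tested partners and regulators were lower in mesenchymal cells and 3 higher, in phenobarbital and in water mice. Of all genes tested, 40.9% were lower and 42.2% higher in phenobarbital mice, and 40.7% and 42% in water mice. The lower ones included Ppara (-4.69 in phenobarbital mice, -5.01 in water mice), Hnf4a (-3.91 in phenobarbital mice and -4.36 in water mice), the CAR gene Nr1i3 (-3.71 in phenobarbital mice and -4.04 in water mice) and the mitochondrial electron carrier Fdx1 (-3.47 in phenobarbital mice and -3.45 in water mice). Nr1i3 was below the detection level on all 6 mesenchymal arrays and Ppara on 5, so their differences are compressed. The higher ones were Ahr (0.90 in phenobarbital mice, 0.82 in water mice), its partner Arnt (0.39 in phenobarbital mice, 0.46 in water mice) and Nfe2l2, which encodes the stress factor NRF2 (1.30 in phenobarbital mice, 1.82 in water mice).

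In mesenchymal cells, 17 of the 36 genes were tested for phenobarbital against water and 0 passed in limma, with a smallest adjusted p of 0.998, and 0 of all 8003 genes passed (0%). At an unadjusted p under 0.05 there were 0 members, beside 2.9% of all genes. The arrays did not overlap for 1 gene, Cyp4f18, lower in phenobarbital mice, beside 7.7% of all genes in either direction and 3.61% in this one. It stood at 7.34, 7.52 and 7.57 in phenobarbital mice against 8.09, 7.62 and 7.63 in water mice, a log2 difference of -0.30 (SE 0.15), which was -0.15 without water array 1. Cyp4b1 had a difference of 0.10 (SE 0.20, 95% interval -0.37 to 0.57) and Cyp4f16 of -0.20 (SE 0.11).

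Of the 17 differences, 13 were positive, beside 51.8% of all genes, with a median of 0.12. The widest were those of Cyp2d10 (0.93, SE 0.48), Cyp1a2 (0.75, SE 0.43), Cyp4f15 (0.61, SE 0.41), Cyp2a12 (0.54, SE 0.50) and Cyp2d26 (0.51, SE 0.69), genes far lower in these cells than in hepatocytes. The 14 hepatocyte markers, of which none passed the test, were positive in 14 of 14 cases with a median of 0.51. Without phenobarbital array 1, which held the highest mean of those markers, 14 members were tested, 6 were positive and the median was -0.04. The marker median was then 0.05, and Cyp2d10 stood at 0.52, Cyp1a2 at 0.40, Cyp2a12 at 0.02 and Cyp2d26 at -0.26, while Cyp4f15 was no longer tested. Without water array 1, which held the lowest marker mean, 10 of 17 were positive and the median was 0.03. The part of hepatocyte RNA in the members' differences was not tested beyond these values.

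**Figure D5:**
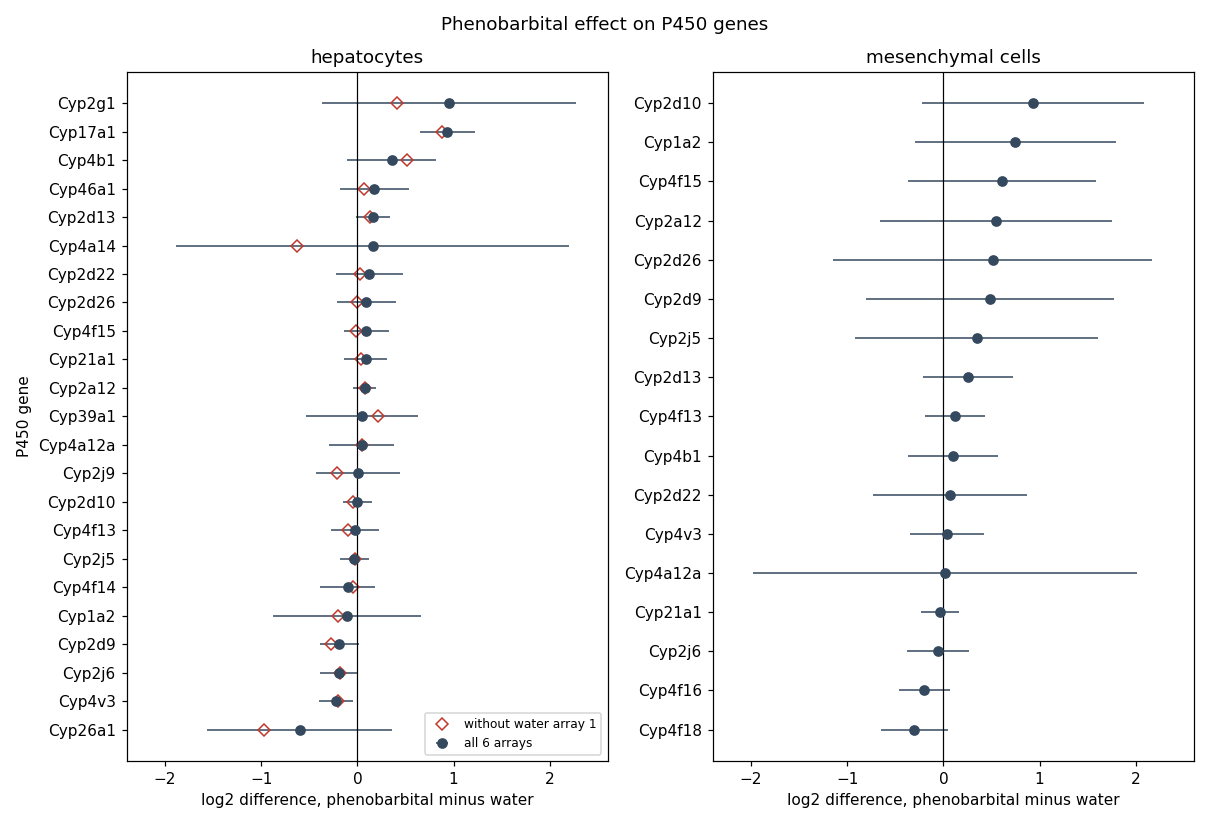
Log2 difference of phenobarbital minus water for the P450 genes tested in hepatocytes (left, 23 genes) and in mesenchymal cells (right, 17 genes), with 95% confidence intervals from limma. Open diamonds give the hepatocyte value without water array 1. The intervals of Cyp17a1 and Cyp4v3 lie off 0 in hepatocytes, and no gene passed the test after adjustment over all genes.

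The difference between the phenobarbital effects, hepatocytes minus mesenchymal cells, was tested for 25 of the 36 genes over all 12 arrays. Of these 0 passed in limma (smallest adjusted p 0.870), as did 0 of all 9031 genes (0%). At an unadjusted p under 0.05 there was 1, beside 5.45% of all genes. That was Cyp17a1, with a fitted difference of 0.66 (SE 0.21, limma adjusted p = 0.870). In mesenchymal cells Cyp17a1 stood at 5.50, 5.10 and 5.65 in phenobarbital mice against 5.16, 5.09 and 5.17 in water mice, below the detection level on every array, so no mesenchymal effect could be measured for it. The interval for Cyp4b1 ran from -0.40 to 0.92, that for Cyp2d10 from -2.09 to 0.22 and that for Cyp1a2 from -2.19 to 0.48.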

How the data were processed

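The table of RMA values on a log2 scale was used as the authors deposited it; RMA is named per the submitters' processing notes, and background correction, quantile normalization and probe summary, the steps of RMA, were not repeated. Of 22626 probe sets, 691 carry several symbols and 1555 none in the platform annotation and were not used. For each gene the probe set with the highest mean was kept, and genes above the array's 40th percentile on at least 3 arrays of a fit were tested with limma 3.58.1 (R 4.3.3, lmFit and eBayes with trend), with Benjamini-Hochberg adjustment over all genes tested and a threshold of 0.05. Phenobarbital against water was fitted on the 6 arrays of a population, and the populations and the difference of effects on all 12. The code was tested on simulated data. Named genes were those that passed with the widest differences, or the smallest p where none passed, plus a set of family representatives. Members and lists were chosen with earlier results of these data known. Replicate numbers paired the water arrays of the populations (correlations of deviations 0.20, 0.17 and 0.15, each array best with its own number) and no other groups. No scan batch is named in the labels. Alternatives were filters, probe set rules, scalings, eBayes without trend, a replicate block, another set of arrays and each array left out.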

Additional observations from a re-analysis of the deposited data

How the results depend on the processing

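With the replicate block, 0 members passed for phenobarbital in hepatocytes and in mesenchymal cells, and 25 in each comparison of populations, so that the pairing changed no call. Under the other alternatives run, 0 passed for phenobarbital or for the difference of effects. Between populations 20 of 20 tested members passed above the 60th percentile. Of all 6894 genes tested there, 5918 passed in water mice and 5876 in phenobarbital mice. With no filter 33 of 36 passed in water mice and 34 of 36 in phenobarbital mice, beside 9710 and 9967 of all 12393 genes. The members gained there were those that the filter on low values had removed. The count was 24 to 25 when an array was left out. On the 6 arrays of a treatment it was 22 in water mice, beside 7077 of all 8754 genes. In phenobarbital mice it was 24 there, beside 7264 of all 8757 genes. Genes lost were those no longer tested, and no called difference changed sign. Array medians ran from 7.19 (a hepatocyte array) to 7.44 (a mesenchymal array), and centring on them moved the mesenchymal minus hepatocyte difference of Cyp4b1 to 6.28 in phenobarbital mice and 6.55 in water mice. Leaving out both water arrays numbered 1, chosen after seeing the data, left 25 in each. Counting each gene under each alternative as a case, differences that passed no test changed sign in 23 hepatocyte, 13 mesenchymal and 30 difference of effects cases. The sign was kept in 315, 220 and 487 cases, in that order. With 3 arrays a group, phenobarbital differences of members with widely spread arrays, such as Cyp4a14 (SE 0.88), are poorly resolved.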
